A study of Mus musculus with 4 samples.

Results

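The genes described here are 10 intracellular readouts of Fgf and Erk signaling, *Etv1*, *Etv4*, *Etv5*, *Spry1*, *Spry2*, *Spry4*, *Spred1*, *Spred2*, *Dusp6* and *Il17rd*. They were taken by symbol from the 22086 genes of the deposited RNA-seq tables, and all 10 were present. Cells carrying RFP were sorted from the palatal shelves of 4 mouse embryos of mixed background at E13.5, and each embryo gave its own RNA-seq library. All 4 embryos carried 1 *Osr2*RFP knock-in allele, which marks *Osr2*-expressing cells, and 2 of them were constitutively *Foxf2*-/-. The controls were 1 *Foxf2*+/+ and 1 *Foxf2*+/- littermate, so each control genotype had no replicate and the controls differ in *Foxf2* dose. In each series of 4 values below the order is *Foxf2*+/+, *Foxf2*+/-, *Foxf2*-/- replicate 1 and *Foxf2*-/- replicate 2.

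Fgf ligands bind receptor tyrosine kinases, which pass the signal through Ras, Raf and Mek to the kinase Erk. Erk activity switches on its own brakes, so the mRNA levels of these brakes are widely used to read how active the pathway is in a tissue. Etv1, Etv4 and Etv5 are the transcription factors of the Pea3 group through which the signal reaches target genes. Sprouty and Spred proteins restrain the pathway at the level of Ras and Raf, Dusp6 is a cytoplasmic phosphatase that removes the activating phosphates from Erk, and Il17rd, also called Sef, is a membrane protein that antagonises Fgf signaling. In the palate, Fgf signals pass in both directions between mesenchyme and epithelium. The comparison asks whether these readouts differ in mesenchyme that lacks Foxf2, in which the ligand gene *Fgf18* is more abundant.

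Levels are given in FPKM, fragments scaled to transcript length and library size, so that they can be compared between genes. Read numbers were not in the tables, so the depth in reads is unknown, but the coverage column places 718 to 878 megabases on transcripts in each embryo, a spread in depth of 1.19 times between libraries by the ratio of coverage to FPKM. *Foxf2* itself was at 85.4, 45.1, 1.41 and 2.28 FPKM, as the labels require. All 10 mesenchyme markers were present, with *Osr2* between 129 and 147 FPKM, while the 6 endothelial markers and the 6 skeletal muscle markers were each under 1 FPKM in every embryo. The summed level of 9 epithelial markers was 7.46, 8.47, 8.69 and 9.49 FPKM. The 8 erythroid markers did not have an even level and summed to 172, 1163, 944 and 2498 FPKM. The 6 macrophage markers summed to 17.5, 24.5, 17.4 and 26.9 FPKM, and 6 neural and glial markers to 4.04, 5.50, 9.84 and 6.34 FPKM. Of the neural and glial markers, *Fabp7* was at 0.742, 0.224, 4.58 and 0.898 FPKM, by far the highest in *Foxf2*-/- replicate 1. The epithelial, endothelial and neural sums were each higher in both *Foxf2*-/- embryos than in both controls, and the skeletal muscle sum was lower. The part of these cells in the results was not tested.

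None of the 10 genes was called different between *Foxf2*-/- and control embryos. *Fgf18*, tested in the same fit, was called, at about double the control level. *Fgf18* was at 15.4, 14.6, 29.0 and 30.4 FPKM, a log2 fold change of 0.98 with a 95% interval from 0.77 to 1.18 (limma, Benjamini-Hochberg adjusted p = 0.021). *Dusp6* had the largest difference among the readouts, at 1.37 times the control level. The other 9 genes had fold changes between 0.817 (*Etv4*) and 1.09 (*Spry1*). A gene that is not called can still differ, and *Ccnd1*, at 1.81 times the control level, was not called. In bulk RNA of this kind, fewer cells that express a gene and less RNA per cell cannot be told apart. By in situ hybridization, the paper reports ectopic *Fgf18* in specific anterior and posterior parts of the *Foxf2*-/- shelves. The sorted cells were not divided by region, so a difference confined to such parts is averaged with the rest.

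Genes were tested on log2(FPKM + 0.1), which understates changes of low genes, over the 11154 genes with a mean of at least 1 FPKM, and all 10 passed this filter. Calls needed an adjusted p under 0.05 together with a change past 1.5-fold, and 0.0628% of the genes tested met both. Among the 10 genes 0 were called, and 1, *Dusp6*, had an unadjusted p under 0.05, as did 13% of the genes tested. A difference of more than 1.5-fold between the mean of the *Foxf2*-/- embryos and each control was reached by 0 of the 10 and by 1.4% of the genes tested. For 8 of the 10 genes the log2 fold change was at most 0.2 in either direction, as it was for 69.9% of all genes tested. The median log2 fold change was 0.067 over the 10 genes and -0.08 over all genes tested. The plot of fold changes shows that the 95% intervals of 8 of the 10 genes lay within 1.5-fold in either direction. The interval of *Dusp6* passed the 1.5-fold line upward and that of *Etv4* passed it downward. All 10 upper bounds were below a 2-fold rise. The shares of all genes tested with such intervals were not computed, so these counts do not set the 10 genes apart. These intervals are for single genes, without adjustment for the number of genes, and rest on the spread that limma shares between genes.

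**Figure D1:**
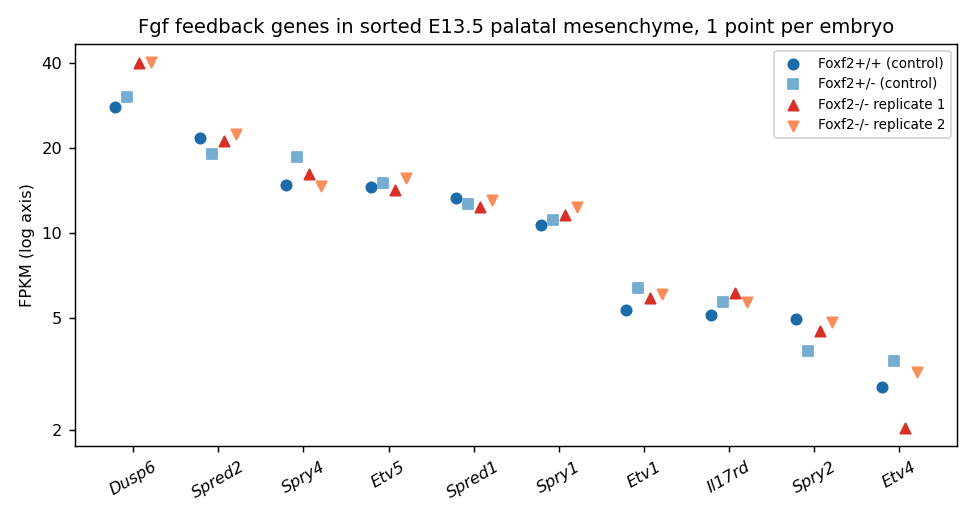
FPKM of the 10 Fgf feedback genes (log axis) in each of the 4 embryos, ordered by the mean of the controls. For *Dusp6* both *Foxf2*-/- points, at 39.9 and 40.2 FPKM, sit above the controls at 28.0 and 30.2 FPKM, while for *Etv5* and *Spred1* the 4 points intermingle.

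**Figure D2:**
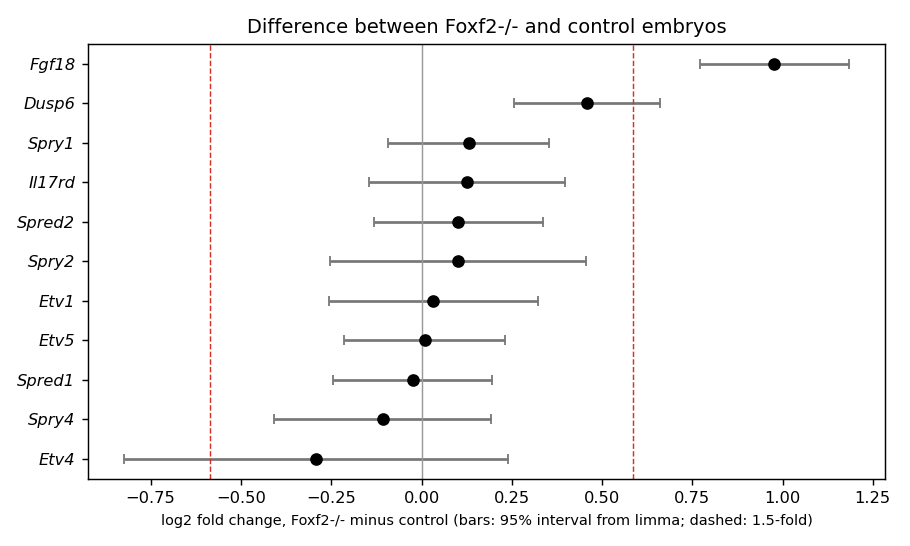
Log2 fold change, *Foxf2*-/- minus control, of the 10 feedback genes and *Fgf18*, with 95% intervals from limma as bars (2 embryos per group) and 1.5-fold as dashed lines. The interval of *Fgf18* starts at 0.77, above the dashed line, whereas 9 of the 10 feedback genes have intervals that include 0.

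*Dusp6*, on the plus strand of chromosome 10 of mm9 from 98725865 to 98730123, encodes the Erk phosphatase. Its FPKM was 28.0, 30.2, 39.9 and 40.2. Both *Foxf2*-/- embryos were above both controls, and they differed from each other by only 0.01 on the log2 scale, against 0.11 between the controls. The log2 fold change was 0.46 (standard error 0.086, 95% interval 0.26 to 0.66), with an adjusted p of 0.160 from limma, so *Dusp6* did not pass. It was 0.51 against the *Foxf2*+/+ and 0.40 against the *Foxf2*+/- embryo, both short of 1.5-fold. *Dusp6* was also the only 1 of the 10 genes whose *Foxf2*-/- mean differed by more than 25% from each control, as did 6.2% of all genes tested in either direction. A log2 fold change of at least this size was found in 1.93% of the genes tested. The estimate was well covered, with 106 to 174 kilobases of aligned sequence per embryo. The ratio of *Dusp6* to each of the other 9 genes was higher in both *Foxf2*-/- embryos than in both controls. For example, the *Dusp6* to *Etv5* ratio was 1.92, 2.01, 2.80 and 2.58. All 9 ratios share the *Dusp6* values, so they restate its difference and are not separate comparisons. The ratio of *Dusp6* to *Fgf18* went the other way, at 1.82, 2.07, 1.38 and 1.32.

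The upstream sequence of *Dusp6* is shown because this gene had the largest difference among the readouts, and that of *Etv5* because it was the sole promoter among them to hold the forkhead letters searched for. Each is the 250 bases before the RefSeq start (GRCm38.p6), on the gene's strand. They lie at chr10:99262981-99263230 for *Dusp6* and at chr16:22439571-22439820 for *Etv5*. Capitals mark the ETS core GGAA on either strand (TTCC on the other) and the forkhead motif GTAAACA.
Dusp6: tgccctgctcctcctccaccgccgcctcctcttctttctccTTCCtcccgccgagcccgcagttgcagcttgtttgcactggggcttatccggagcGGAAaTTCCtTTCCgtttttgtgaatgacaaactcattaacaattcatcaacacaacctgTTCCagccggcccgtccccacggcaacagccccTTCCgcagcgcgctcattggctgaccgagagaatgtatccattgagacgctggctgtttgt
Etv5: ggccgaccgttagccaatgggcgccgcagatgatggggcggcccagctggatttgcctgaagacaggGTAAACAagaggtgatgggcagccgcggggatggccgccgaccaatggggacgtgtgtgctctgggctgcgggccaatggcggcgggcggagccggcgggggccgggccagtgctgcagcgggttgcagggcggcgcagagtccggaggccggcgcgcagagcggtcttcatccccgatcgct

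*Dusp6* held 6 matches to the ETS core, of which 3 lie between 154 and 141 bases before the start, and none to the forkhead letters. *Etv5* held the forkhead letters once, from 183 to 177 bases before its start. Promoters were found for 8 of the 10 genes, 10 promoters in all because *Etv1* and *Etv5* had a second start. Over all 32851 RefSeq promoters of 300 bases, 96% held the 4-letter ETS core, so its presence says little. The longer ETS letters CCGGAA, which contain that core, were found in 14.9% of all promoters and in 1 of these 10, that of *Spry2*. CCGGAAGT and the cyclic AMP response letters TGACGTCA, found in 3.89% and 1.79% of all promoters, were in 0 of these 10. The forkhead letters were found in 3.65% of all promoters and in 1 of these 10. A match is a description of letters in this window and not a site of binding.

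The Sprouty genes encode inhibitors that Fgf signals induce and that act between the receptor and Raf. *Spry4* (mm9 chromosome 18, 38745919 to 38760922, minus strand) was at 14.7, 18.6, 16.1 and 14.6 FPKM. The *Foxf2*+/- control was the highest of the 4 and the other 3 lay close together, so the groups overlapped. Its log2 fold change was -0.11, with a 95% interval from -0.41 to 0.19. *Spry1*, on the plus strand of chromosome 3 from 37538872 to 37543521, was at 10.7, 11.1, 11.6 and 12.3 FPKM. Both *Foxf2*-/- embryos were above both controls, by a log2 fold change of 0.13 with an interval from -0.09 to 0.35 (adjusted p = 0.597 from limma). *Spry2*, on the minus strand of chromosome 14 from 106291164 to 106296036, was at 4.98, 3.82, 4.51 and 4.86 FPKM. Here the *Foxf2*+/- control was the lowest and the *Foxf2*+/+ control the highest. The log2 fold change of *Spry2* was 0.10, with an interval from -0.25 to 0.46.

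Spred1 and Spred2 are membrane-anchored relatives of Sprouty that bring the Ras-inactivating protein neurofibromin to the membrane. *Spred2*, on the plus strand of chromosome 11 of mm9 from 19824445 to 19922600, was at 21.7, 19.0, 21.2 and 22.4 FPKM. Its lowest value was that of the *Foxf2*+/- control, and the log2 fold change was 0.10 (95% interval -0.13 to 0.34). *Spred1*, on the plus strand of chromosome 2 from 116947186 to 117005072, was at 13.3, 12.6, 12.4 and 13.1 FPKM. All 4 embryos lay within 1 FPKM of each other, and the log2 fold change was -0.02 (interval -0.25 to 0.20). *Il17rd*, on the plus strand of chromosome 14 from 27852187 to 27920472, was at 5.13, 5.68, 6.12 and 5.69 FPKM. Both *Foxf2*-/- embryos were above both controls, but replicate 2 exceeded the *Foxf2*+/- embryo by under 0.1 FPKM, and the log2 fold change was 0.13 (interval -0.14 to 0.40). The adjusted p-values from limma were 0.698 for *Spred2*, 0.936 for *Spred1* and 0.676 for *Il17rd*.

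The Pea3 group genes, which encode the factors that carry the signal to target genes, were no higher in the *Foxf2*-/- embryos than in the *Foxf2*+/- control, apart from 1 *Etv5* value. Against the *Foxf2*+/+ control, both *Etv1* values and the replicate 2 values of *Etv4* and *Etv5* were higher. *Etv5* (mm9 chromosome 16, 22381386 to 22439643, minus strand) was at 14.6, 15.0, 14.2 and 15.6 FPKM, and the lowest and the highest value both came from *Foxf2*-/- embryos. Its log2 fold change was 0.01, with a 95% interval from -0.21 to 0.23. *Etv1*, on the plus strand of chromosome 12 from 39506845 to 39594802, was at 5.34, 6.37, 5.86 and 6.08 FPKM, with both *Foxf2*-/- values between those of the controls. Its log2 fold change was 0.03 (interval -0.26 to 0.32). *Etv1* was the sole gene of the 10 with more than 1 transcript entry, and the longer entry, of 4131 bases, carried 5.08, 6.24, 5.86 and 5.72 FPKM of the sum. The entry of 3791 bases stayed under 0.4 FPKM in each embryo.

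*Etv4*, on the minus strand of chromosome 11 from 101631056 to 101646624, was the least abundant of the 10, at 2.85, 3.52, 2.04 and 3.22 FPKM. *Foxf2*-/- replicate 1 was the lowest of the 4 embryos and replicate 2 lay between the controls. The log2 fold change of *Etv4* was -0.29 with the widest interval of the 10 genes, from -0.82 to 0.24 (adjusted p = 0.622 from limma). It rested on 6.63 to 13.2 kilobases of aligned sequence per embryo. This was the least of the 10 except in the *Foxf2*+/- embryo, where *Spry2* had 12.8 kilobases. Without *Foxf2*-/- replicate 1 its log2 fold change was 0.03, and without replicate 2 it was -0.61, so a single embryo decides its direction.

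The groups did not overlap for 3 of the 10 genes, *Dusp6*, *Spry1* and *Il17rd*, with both *Foxf2*-/- embryos above both controls, and for 0 genes in the other direction. Over all genes tested, 9.89% did not overlap with *Foxf2*-/- higher and 35.8% with *Foxf2*-/- lower. This imbalance depends on the scaling between embryos. After median-ratio scaling, which moved the median of all genes from -0.08 to -0.0015, the shares were 21% and 21.6%, and 7 of the 10 genes lay higher without overlap, all but *Etv1*, *Etv4* and *Spry4*. Under that scaling the log2 fold change of *Dusp6* was 0.54 with an adjusted p of 0.115 from limma, still not a call. With 2 embryos against 2, an exact permutation test of a single gene cannot give a p below 0.333.

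The order of levels across the 10 genes was much the same in all embryos. *Dusp6* had the highest mean over the 4 embryos, at 34.6 ± 6.4 FPKM (SD, n = 4), followed by *Spred2* at 21.1 ± 1.5, *Spry4* at 16.0 ± 1.8, *Etv5* at 14.9 ± 0.59, *Spred1* at 12.9 ± 0.43 and *Spry1* at 11.4 ± 0.70. *Etv1* was at 5.92 ± 0.43, *Il17rd* at 5.65 ± 0.41, *Spry2* at 4.54 ± 0.52 and *Etv4* at 2.91 ± 0.64 FPKM. Of the 9 pairs of neighbors in this order, *Spry4* with *Etv5* and *Etv1* with *Il17rd* overlapped in their ranges over the embryos. *Spred1* and *Spry1* were separated by the smallest margin among the rest, with 12.4 FPKM as the lowest value of *Spred1* and 12.3 as the highest of *Spry1*.

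Within each family the shares of the members differed by less than 5 percentage points between the groups. *Etv5* made up 62.2% ± 2.6 of the summed Pea3 group FPKM in controls, against 63.4% ± 1.2 without *Foxf2* (SD over 2 embryos, n = 2). For *Spry4* the share of the Sprouty sum was 52.0% ± 4.9 against 48.0% ± 2.8. For *Spred2* the share of the Spred sum was 61.0% ± 1.3 against 63.1% ± 0.072. The summed Pea3 level was 22.8, 24.9, 22.1 and 24.9 FPKM, and the summed Sprouty level was 30.4, 33.6, 32.2 and 31.8 FPKM. In both sums the groups overlapped, and no *Foxf2*-/- embryo exceeded the *Foxf2*+/- control. All genes but *Dusp6* together came to 93.3, 95.8, 94.0 and 97.9 FPKM.

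**Figure D3:**
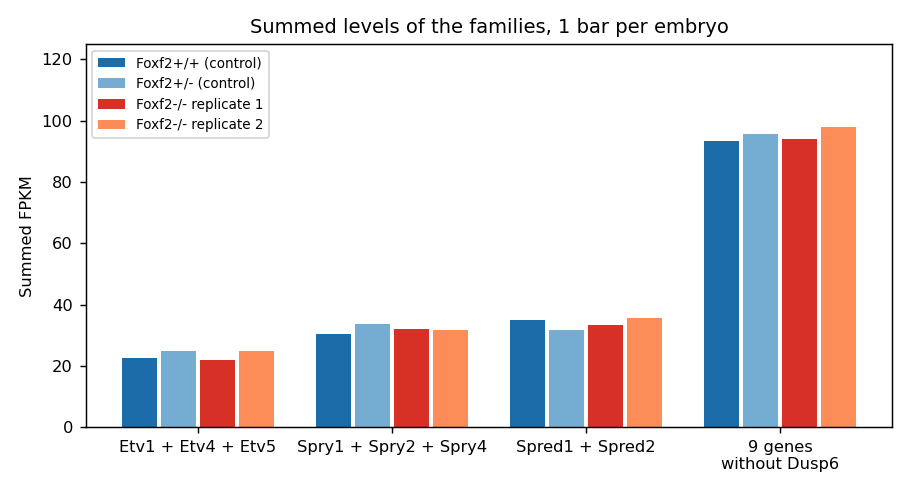
Summed FPKM of the Pea3 group (*Etv1*, *Etv4*, *Etv5*), the Sprouty genes, the Spred genes and the 9 genes other than *Dusp6*, with 1 bar for each embryo. Bars of the 2 genotype groups reach like heights, as in the last set, which runs from 93.3 to 97.9 FPKM.

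The *Foxf2*+/- embryo gives the middle dose of *Foxf2*, with no replicate. Its *Dusp6* level lay between those of the *Foxf2*+/+ and the *Foxf2*-/- embryos, and so did its *Spry1* and *Il17rd* levels. In these genes both controls were below both *Foxf2*-/- embryos, so the only other place for this embryo was the lowest. For *Etv1*, *Etv4* and *Spry4* it had the highest value of the 4 embryos, and for *Spry2* and *Spred2* the lowest. In 8 of the 10 genes, the absolute log2 difference between the controls was larger than that between the *Foxf2*-/- and control means. *Dusp6* and *Spry1* were the exceptions. A difference between single embryos varies more than one between means of 2, and the share over all genes tested was not computed. The count therefore does not set these genes apart.

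Of 16 other Fgf and Erk feedback and target genes, 14 were tested and 0 were called, while 8 lay higher in the *Foxf2*-/- embryos without overlap and 1 lower, beside 9.89% and 35.8% of all genes tested (21% and 21.6% after median-ratio scaling). Their median log2 fold change was 0.18, and 5 had an unadjusted p under 0.05, as did 13% of all genes tested. *Ccnd1*, which encodes cyclin D1 and drives entry into the cell cycle, was at 23.8, 32.8, 46.7 and 54.9 FPKM. It was the only one of them past 1.5-fold against both controls, with a log2 fold change of 0.86 (95% interval 0.49 to 1.22), and its adjusted p was 0.151 from limma. The *Foxf2*+/- embryo lay between the other genotypes, and since the groups did not overlap its only other place was the lowest. The call of *Ccnd1* turned on the control used, with an adjusted p of 0.045 from limma without the *Foxf2*+/- embryo and 0.506 without the *Foxf2*+/+ embryo, and of 0.043 with the number of *Foxf2* null alleles as a linear term.

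Some further genes of this list were picked out after their values were seen, because their 95% intervals did not reach 0. *Phlda1*, a gene that Erk activity induces, was at 39.7, 36.9, 50.9 and 58.7 FPKM (log2 fold change 0.51, interval 0.28 to 0.75). *Flrt3*, which encodes a membrane protein that interacts with Fgf receptors, was at 22.6, 24.8, 29.9 and 30.5 FPKM (0.35, interval 0.14 to 0.56). *Spred3*, the remaining Spred gene, was at 1.89, 2.21, 3.08 and 2.85 FPKM (0.52, interval 0.15 to 0.89). In each of these genes both *Foxf2*-/- embryos were above both controls, as for *Dusp6*, and none passed the test (adjusted p from limma 0.177, 0.253 and 0.299). *Myc*, another gene induced by mitogens, was at 23.5, 19.6, 16.5 and 18.1 FPKM, lower in both *Foxf2*-/- embryos (-0.31, interval -0.57 to -0.04, adjusted p = 0.339 from limma). The immediate early genes *Egr1* and *Fos*, also named after their values were seen, overlapped between the groups, at 7.18, 6.27, 6.48 and 9.81 FPKM and at 4.85, 3.49, 3.29 and 3.55 FPKM. Among 9 dissociation and stress genes, 5 were tested and 0 were called. Another cytoplasmic Erk phosphatase gene, *Dusp7*, was also named after its values were seen. It was more abundant than *Dusp6* but overlapped between groups, at 67.8, 67.4, 58.2 and 73.9 FPKM.

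**Figure D4:**
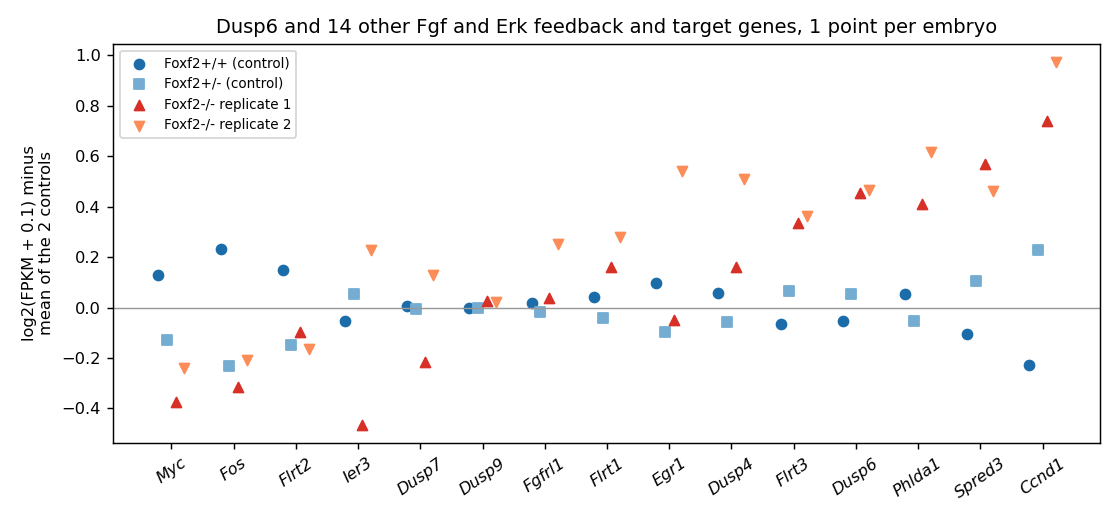
Level of *Dusp6* and of 14 other Fgf and Erk feedback and target genes in each embryo, as log2(FPKM + 0.1) minus the mean of the controls, ordered by log2 fold change. *Ccnd1*, at the right, has the largest difference (0.86), and *Myc*, at the left, the lowest (-0.31).

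The machinery between receptor and Erk was close to level. Of 22 genes, among them those for adaptors, Ras proteins and kinases, 21 were tested and 0 were called. Their log2 fold changes ran from -0.19 to 0.17 with a median of -0.06. The groups did not overlap for 3 of them with *Foxf2*-/- higher and for 8 with *Foxf2*-/- lower, a lean that all genes tested share (9.89% and 35.8%). *Gab1*, an adaptor for receptor signals, was at 24.9, 23.2, 26.5 and 25.9 FPKM, and *Shc1*, another adaptor, at 25.9, 21.8, 21.7 and 22.5 FPKM. Of 4 receptor genes 2 were tested and 0 were called, with *Fgfr1* at 54.2, 50.3, 55.7 and 63.2 FPKM and *Fgfr2* at 11.0, 11.4, 9.14 and 10.5 FPKM. Among 22 ligand genes 5 were tested and 1, *Fgf18*, was called, and 6 were listed at 0 in every embryo. *Fgf10*, a mesenchymal ligand that signals to epithelium, was picked out after its values were seen. It was at 6.55, 5.15, 4.73 and 3.63 FPKM, lower in both *Foxf2*-/- embryos (log2 fold change -0.48, interval -0.88 to -0.07), and did not pass the test (adjusted p = 0.335 from limma). For *Fgf10* the paper reports no obvious difference by in situ hybridization and no significant one by RT-PCR of microdissected palatal shelves. All 14 other ETS family genes were tested and 0 were called, with 4 higher and 4 lower without overlap, beside the same 9.89% and 35.8% of all genes tested. Their log2 fold changes ran from -0.29 to 0.30, and the most abundant, *Elf2* and *Gabpa*, were at 16.5, 17.4, 16.3 and 17.5 FPKM and at 15.8, 15.6, 14.4 and 15.5 FPKM.

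The genes whose pattern over the 4 embryos lay closest to that of *Dusp6* were *Ripk2*, *Runx1t1* and *Grb14*. Closeness was the root mean square difference of log2 values, each centered on the gene's own mean, and came to 0.0022, 0.0068 and 0.014. *Runx1t1* was at 21.6, 23.3, 30.8 and 31.3 FPKM. This is a ranking over 4 embryos only and is given as a description.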

How the data were processed

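Per the study's methods, the authors mapped single-end reads with Tophat and Bowtie, on mm9 (Bowtie 0.12.7 in the submitters' processing notes). The deposited FPKM values and the mean read coverage of each RefSeq transcript are in tables of the form Cufflinks writes, 1 per embryo. The Cufflinks version and read length are not given in the sources used here. FPKM is scaled for library size and coverage is not.

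Entries under 200 bases, and 10 genes with a failed estimate, were left out, and FPKM was summed by symbol. Kilobases aligned are coverage times transcript length. A linear model in limma 3.58.1, run in R 4.3.3 with its trend option, compared *Foxf2*-/- with both controls on log2(FPKM + 0.1) of 11154 genes, with Benjamini-Hochberg adjustment over all of them. Tables and figures were made in Python 3.11.15 with pandas 2.3.3. The limma script was tested on simulated data. The authors' own test used read numbers and was not run on FPKM.

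The genes, gene lists and settings were chosen with earlier results of these data known. All 10 genes were named. From other lists those past a threshold, or else the 2 most abundant, were named, and 3 genes closest to the most different member. Any further gene was named after its values were seen, as stated beside it.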

Additional observations from a re-analysis of the deposited data

How the results depend on the processing

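With 2 embryos per group, 1 for each control genotype, and FPKM in place of counts, small differences are beyond these data. Over 14 alternative fits, 0 of the 10 genes was called by limma. The adjusted p of *Dusp6* ranged from 0.113 to 0.682. The count past 1.5-fold against both controls was 0, except for 1 when a change of 25% was enough. Median-ratio scaling moved the median log2 fold change of the 10 genes to 0.15, *Spred1* to 0.055 and the count without overlap, higher, to 7. Under that scaling the median of all genes tested was -0.0015, and 21% of them lay higher without overlap. A linear term for *Foxf2* null alleles put *Spry2* at -0.019 and *Spry4* at 0.0033, and called *Ccnd1* in place of *Fgf18*. The 1 call among the pathway lists, *Fgf18*, became 0 with no filter on low values, with the most abundant entry of each gene and without a variance trend, at a log2 fold change of 0.98 in each and adjusted p of 0.233, 0.128 and 0.102. The cause was not tested. Over all genes, 7 calls became 13 with a pseudocount of 1, 0 with no filter, 27 with entries of every length, 1 with the most abundant entry, 0 without a trend, 20 with a separate mean for each control genotype and 15 with the linear term.

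With 1 embryo omitted at a time, calls over all genes ranged from 7 to 38 (without the *Foxf2*+/- embryo), and the median of the 10 genes from 0.028 to 0.074. The count without overlap ranged from 3 to 5 higher and from 1 to 3 lower, where 15.0% to 28.4% and 44.4% to 61.2% of all genes did so. The pathway calls ranged from 0 (without the *Foxf2*+/+ embryo) to 2. Log2 fold changes ranged from -0.092 to 0.16 for *Etv1*, -0.61 to 0.026 for *Etv4*, -0.058 to 0.075 for *Etv5*, -0.068 to 0.019 for *Spred1*, -0.086 to 0.29 for *Spry2* and -0.27 to 0.060 for *Spry4*. *Dusp6*, *Spry1*, *Il17rd* and *Spred2* stayed above 0 in every fit. Fits with 1 embryo in a group assume that it varies like the others. No paired analysis was possible because each control genotype had 1 embryo and no control was matched to a particular *Foxf2*-/- embryo.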
